A study of Mus musculus with 6 samples.

Results

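The 42 genes described here encode enzymes that make, recycle and use glutathione, the thioredoxin and peroxiredoxin proteins, catalase, the superoxide dismutases, and the regulator pair NRF2 (gene Nfe2l2) and KEAP1. They were chosen by gene symbol, and all 42 were found among the 24422 symbols of the count tables. RNA came from whole kidneys of wild type C57BL/6 pups at postnatal day 15. In the iron-deficient group (FeD, 3 kidneys), the dams were fed a synthetic chow holding 2 to 6 ppm iron through pregnancy and until the kidneys were taken. That diet began a month before mating by the labels and somewhat later by the study's methods. In the control group (3 kidneys), the dams' chow held 220 ppm iron over the same time. The sources used here give no litter for any pup, so litter and diet cannot be told apart, and the P values measure only the spread between these kidneys.

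Glutathione is a small thiol made in the cytosol in a pair of ligation steps and kept reduced with NADPH. Glutathione transferases attach it to electrophiles, and the selenium-dependent glutathione peroxidases spend it to reduce peroxides. Many of these enzymes are induced by NRF2, a transcription factor that KEAP1 holds for degradation until oxidants or electrophiles modify KEAP1. The proximal tubule, which carries most of the kidney's transport work, is rich in mitochondria, peroxisomes, and several of these enzymes.

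NRF2 binds with small MAF proteins to the antioxidant response element, and the core letters of that element were searched in the promoters of these genes. The letters were TGACNNNGC on either strand, in RefSeq windows (build GRCm38.p6) from 250 bases before to 50 bases after each start site. Of the 42 genes, 36 had a window, and the letters were found in 10 (27.8%), against 3781 of 27025 genes overall (14.0%). The stretches below are examples of how the core sits upstream of the start site in 6 of them. Of these examples, 2 rose in FeD kidneys, 2 fell, and 2 did not pass the test. Upstream matches in Ggt1 (which fell), Nfe2l2 (which rose), and Sod1 (which did not pass) are not shown. Each stretch shown is read 5′ to 3′ on the gene's strand with the matched letters in capitals. Those of Mgst1 and Gstm5 are shorter because their surroundings meet an annotated transcript.
Mgst1 (chr6:138140461-138140489, plus strand): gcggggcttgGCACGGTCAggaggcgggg
Gstm5 (chr3:107895802-107895830, plus strand): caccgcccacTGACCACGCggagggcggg
Prdx1 (chr4:116685441-116685499, plus strand): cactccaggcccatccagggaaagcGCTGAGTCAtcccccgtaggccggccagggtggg
Gsta3 (chr1:21240439-21240497, plus strand): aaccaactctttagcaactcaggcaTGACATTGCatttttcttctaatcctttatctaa
Gclm (chr3:122245398-122245456, plus strand): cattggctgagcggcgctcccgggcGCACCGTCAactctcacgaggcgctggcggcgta
Txnrd1 (chr10:82859089-82859147, plus strand): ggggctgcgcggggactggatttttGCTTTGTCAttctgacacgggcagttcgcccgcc

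Over all 10 genes whose window held the letters, 3 rose (Gstm5, Mgst1, and Nfe2l2), 3 fell (Ggt1, Gsta3, and Prdx1), and 4 did not pass (Gclm, Sod1, Srxn1, and Txnrd1). By the same test, 22.4% of all tested genes were higher and 23.3% lower. The first base of the core lay between 134 bases (Gclm) and 42 bases (Gstm5) before the start site in the stretches shown. A match of these letters is a description of the sequence and shows no binding. Gclc, Gsr, Gsta4, Gstt2, Prdx6, and Sod3 had no window in the table.

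Values below are TMM-scaled CPM, the read counts brought to a common library size after edgeR's TMM scaling. Differences are log2 fold changes of FeD over control ± SE, tested by quasi-likelihood in edgeR, with P values adjusted by the Benjamini-Hochberg method across the 15145 genes tested. The libraries held 13732173 to 20853293 counts, so a count of 3, taken as the floor, was worth 0.145 to 0.218 CPM. The 42 genes took 1.86% to 2.11% of the counts of each kidney. FeD kidney 2 stood apart from the other 5. It carried 1828 counts of Cyp11b1, an enzyme made in the adrenal cortex, against 0 to 6 elsewhere, and the sum of 4 adrenal markers was 394.7 CPM against 7.22 to 16.2 CPM. Results of the 42 genes that change call or direction without this kidney are given both ways. Xist was abundant in controls 1 and 2 and in FeD 3, and the Y-linked Ddx3y in the other 3 kidneys, so the sexes were not balanced and the part of sex was not tested. The main globin genes were listed at 0 in all 6 kidneys, so blood was followed only through Alas2, at 18.8 to 42.6 CPM in control and 5.17 to 23.1 CPM in FeD kidneys.

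Kidney markers moved with the diet as well. The summed level of 12 proximal tubule markers was 10948±390 CPM in control and 4409±311 CPM in FeD kidneys (SD, n = 3). It fell by 59.7% with no overlap, and 10 of the 12 were lower at adjusted P under 0.05 (83.3%, against 23.3% of all tested genes). Slc34a1 (4022 to 861 CPM) and Miox (1439 to 137 CPM) had the highest control levels of the 12 and weighed heavily in this sum. The sums ran from 10548 to 11328 CPM in control and from 4056 to 4643 CPM in FeD kidneys, and the defining marker Lrp2, which encodes megalin, ran from 1226 to 1382 CPM in control and from 901 to 957 CPM in FeD kidneys. The sum of distal convoluted tubule markers fell by 55.8% and that of endothelial markers by 24.7%, both without overlap. The sums of intercalated cell markers (24.7%) and interstitial markers (22.6%) also fell without overlap, but their single markers were split. Of 5 interstitial markers, 3 were called higher (Pdgfra, Pdgfrb, and Dcn) and 2 lower (Col1a1 and Col3a1). Of 5 intercalated markers, 2 were called higher (Atp6v0d2 and Foxi1) and 2 lower (Slc4a1 and Slc26a4). The sum of 6 collecting duct markers was higher by 74.2%, with 3 of them called higher (Aqp2, Aqp3, and Scnn1g) and 2 lower (Avpr2 and Hsd11b2). The sums of thick ascending limb, podocyte, and macrophage markers overlapped between diets, but some of their single markers were called. Of 6 thick ascending limb markers, 2 were called lower (Egf and Cldn10) and 0 higher. Of 5 podocyte markers, 1 was called higher (Wt1) and 0 lower. Of 7 macrophage markers, 3 were called higher (Cd68, Itgam, and C1qa) and 1 lower (Csf1r). In whole kidney RNA, fewer cells of a type and less RNA per cell cannot be told apart, and the part of this shift in the results below was not tested.

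Of the 42 genes, 40 had enough counts to be tested. Gstm3 (0 to 4 counts per kidney) and Mgst2 (0 to 8 counts) did not. At adjusted P under 0.05, 6 of the 40 genes were higher in FeD kidneys (15.0%), where 22.4% of all tested genes were, and 17 were lower (42.5%), where 23.3% of all tested genes were. With the study's added requirement of at least a 2-fold change, 3 were higher (7.5%, against 4.34% of all tested genes) and 0 were lower (against 5.69%). One of the 3, Gsta1, passed the filter on low counts only through the FeD kidneys, and without it 2 of 39 were higher by 2-fold (5.13%) and 5 of 39 at adjusted P under 0.05 (12.8%). DESeq2 also called 0 lower by 2-fold. At an unadjusted P under 0.05 in edgeR, 27 of the 40 genes passed, 7 higher (17.5%, against 26.6% of all tested genes) and 20 lower (50%, against 27.0% of all tested genes), again with 0 lower by 2-fold. Every FeD kidney lay above every control kidney for 6 genes (15.0%, against 28.4% of all tested genes), and below every control kidney for 22 (55.0%, against 29.7%). The median log2 fold change of the 40 genes was -0.21, against -0.0018 over all genes. The 17 called falls ran from -0.27 (Mgst3) to -0.98 (Gstk1), and the called rises other than Gsta1 (2.80) from 0.23 (Nfe2l2) to 1.28 (Gclc).

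**Figure D1:**
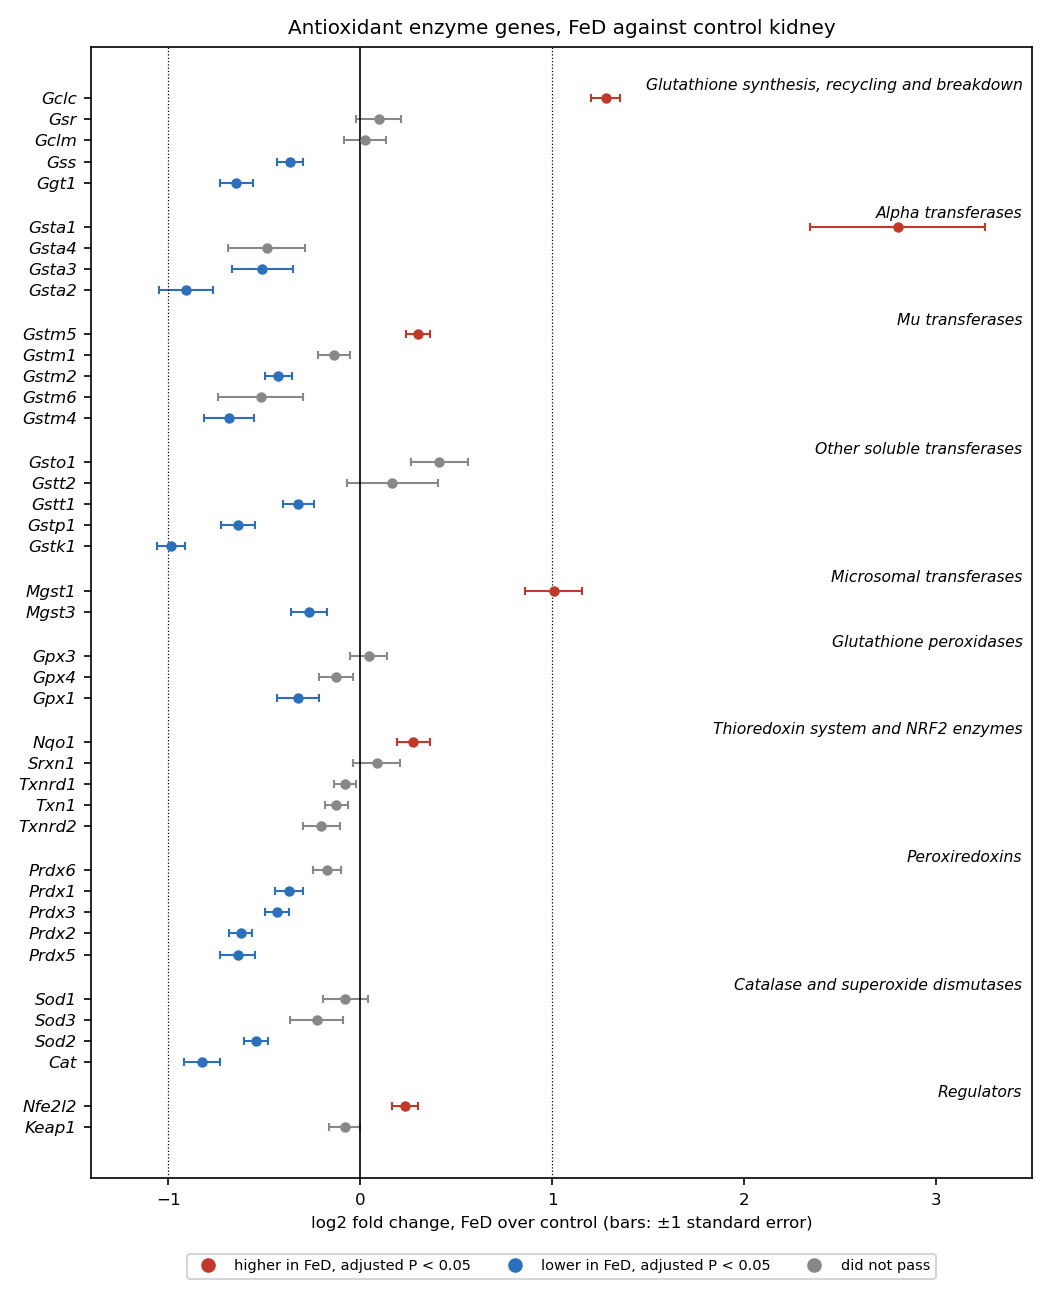
Log2 fold change (FeD over control kidneys, x axis) of the 40 tested genes, grouped by role, with bars of ±1 SE and dotted lines at a 2-fold change in either direction. Gclc, Gsta1, and Mgst1 lie beyond the upper line, Gstk1 lies just inside the lower one at -0.98, and all 5 peroxiredoxins lie below 0.

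The first committed step of glutathione synthesis is run by glutamate-cysteine ligase, whose catalytic subunit is Gclc and whose modifier subunit is Gclm. Gclc (chr9:77602342-77642292 in mm9) read 144, 142, and 153 CPM in the control kidneys and 353, 330, and 383 CPM in the FeD kidneys. The lowest FeD kidney was above the highest control by a wide margin. The log2 fold change was 1.28±0.076 (edgeR adjusted P = 2.49e-05), or 2.43-fold, and without FeD kidney 2 it was 1.35. Gclm (chr3:121948475-121972902 in mm9) read 115, 124, and 117 CPM in control and 110, 109, and 144 CPM in FeD kidneys, so the groups overlapped, and the log2 fold change was 0.02±0.109 (edgeR adjusted P = 0.869). Within each library, the ratio of Gclc to Gclm counts was 1.25, 1.145, and 1.31 in control kidneys and 3.225, 3.03, and 2.665 in FeD kidneys. This ratio owes nothing to library scaling, and it parted the diets in all 6 kidneys.

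The other 3 genes of this group act after glutamate-cysteine ligase. Gss, which adds glycine to finish glutathione, was lower by a log2 fold change of -0.37±0.069 (edgeR adjusted P = 0.00354), and 13% of its exon bases overlap genes on the opposite strand. Gsr, which reduces the oxidized form with NADPH, did not pass (0.10±0.116, edgeR adjusted P = 0.525). FeD kidney 2 read 180 CPM of Gsr and the other FeD kidneys 138 and 129 CPM, and without it the log2 fold change was -0.04. Ggt1, the brush border enzyme that begins the breakdown of glutathione outside the cell, read 563, 605, and 602 CPM in control and 381, 340, and 412 CPM in FeD kidneys. It fell by 36.0% on the means and was lower in every FeD kidney (-0.64±0.087, edgeR adjusted P = 0.000738). The sum of proximal tubule markers fell by 59.7%, but its 12 markers differed widely. Of these, 7 were lower by at least 2-fold, while Lrp2 fell by 28.3%, Cubn by 26.6%, and Aqp1 by 27.0%. Slc5a12 and Hnf4a did not pass. The summed level of the 5 genes overlapped between diets, at 1209±30.1 CPM in control and 1169±51.7 CPM in FeD kidneys.

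Among the alpha transferases, Gsta1 moved against its neighbors. Gclc, Gsta4, Gsta1, and Gsta2 lie within 601.3 kb of chromosome 9 (mm9), yet Gclc and Gsta1 were higher and Gsta2 lower in FeD kidneys. Gsta1 (chr9:78078463-78090491) was read 8, 3, and 3 times in control and 43, 25, and 26 times in FeD kidneys, which is 0.429, 0.186, and 0.149 CPM against 2.41, 1.82, and 1.26 CPM. All 3 FeD kidneys were higher, and the control counts sat at or near the floor. Since Gsta1 entered the test only through the FeD kidneys, its fitted log2 fold change of 2.80±0.457 is a description. With no filter on low counts it was 2.80 (edgeR adjusted P = 0.00244), and with 10 counts required in every kidney it was not tested. From the summed counts of 14 and 94, the depth-adjusted ratio was 7.04, with an exact 95% interval of 3.995 to 13.4 that covers counting error only. Control kidney 1 held 8 of the 14 control counts, and without it the fitted log2 fold change was 3.40, or 10.5-fold. In addition, 81.8% of the 100-base windows of its transcripts recur in the close copies Gm3776, Gsta2, or Gm10639. Only uniquely mapped reads were counted, so reads of such windows may have been left out and its level may be understated.

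Gsta2 (chr9:78178825-78203595), which shares 24.8% of its windows with the same copies, read 205, 222, and 191 CPM in control and 125, 121, and 84.6 CPM in FeD kidneys. It fell by 46.6% without overlap (-0.91±0.141, edgeR adjusted P = 0.00141). Because Gsta2 stood far above Gsta1 in CPM, the summed level of the 4 alpha genes fell by 37.5%, from 403±26.8 to 252±60.8 CPM. Gsta3 was lower as well (-0.51±0.161, edgeR adjusted P = 0.0320), and this call was lost when any control kidney or FeD 1 was left out. Gsta4, whose product favors the lipid peroxidation product 4-hydroxynonenal, read 116, 131, and 123 CPM in control and 86.8, 118, and 60.6 CPM in FeD kidneys and did not pass (-0.49±0.201, edgeR adjusted P = 0.0791). FeD kidney 2 was the highest FeD kidney for both genes, at 1.45 times the mean of the other FeD kidneys for Gsta3 and 1.60 times for Gsta4. Without it, both were lower, at -0.69 (edgeR adjusted P = 0.00306) and -0.73 (edgeR adjusted P = 0.00547).

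**Figure D2:**
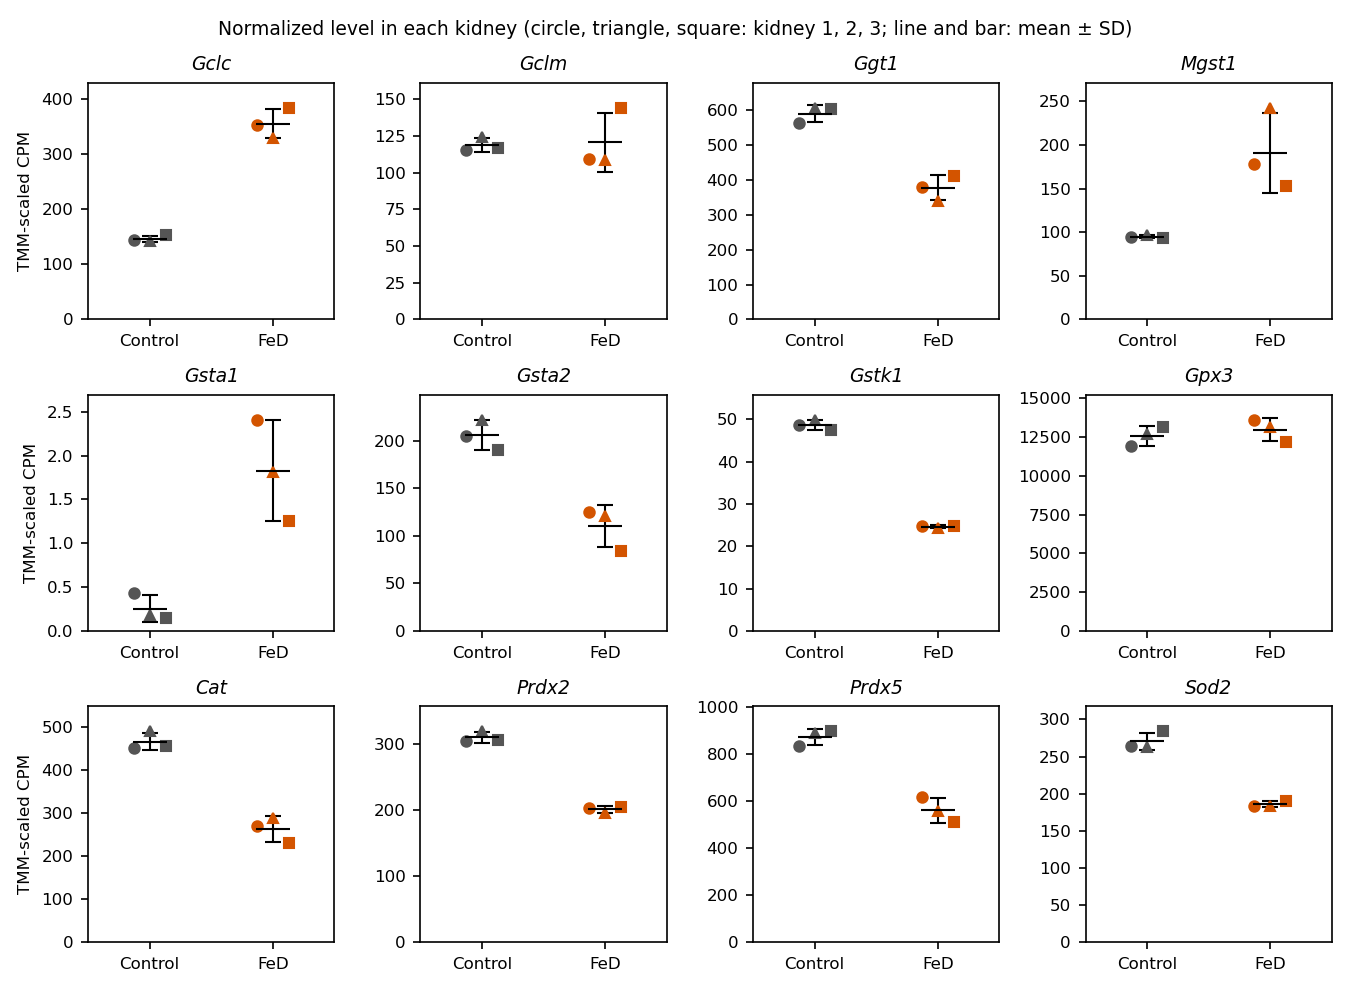
TMM-scaled CPM (y axis, from 0) of 12 of the genes in each control and FeD kidney, with circles, triangles, and squares for kidneys 1, 2, and 3 of a diet, and a line and bar for the mean ± SD. Gclc, Gsta1, and Mgst1 lie higher in every FeD kidney, Gclm and Gpx3 overlap, and the other 7 genes lie lower in every FeD kidney.

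The 6 mu transferases lie side by side within 149.1 kb of chromosome 3 (mm9), and they too did not move as one. Gstm2 read 150, 150, and 153 CPM in control and 105, 109, and 123 CPM in FeD kidneys (-0.43±0.069, edgeR adjusted P = 0.00176). Gstm4 read 14.8, 15.4, and 14.2 CPM in control and 9.41, 10.5, and 7.88 CPM in FeD kidneys (-0.68±0.129, edgeR adjusted P = 0.00345). Both were lower in every FeD kidney. Gstm5, at the other end of the cluster, rose from 89.3±2.35 to 110±6.08 CPM without overlap (0.30±0.061, edgeR adjusted P = 0.00479), and 13.9% of its exon bases overlap a gene on the opposite strand. Gstm1, with the highest length-scaled level of the cluster, had overlapping groups (-0.14, edgeR adjusted P = 0.217). Gstm6 lay lower in every FeD kidney at about 2 CPM and did not pass (-0.52, edgeR adjusted P = 0.0886).

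Of the other soluble transferases, 3 of 5 were lower (60%, against 23.3% of all tested genes) and none passed as higher (against 22.4%). Gstk1 (chr6:42195934-42200440 in mm9), the kappa transferase of mitochondria and peroxisomes, had the lowest log2 fold change of the 40 genes and little scatter. It read 48.7, 49.9, and 47.6 CPM in control kidneys and 24.8, 24.2, and 24.9 CPM in FeD kidneys. Its log2 fold change of -0.98±0.072 (edgeR adjusted P = 5.36e-05) means that it fell by 49.4%, just short of a 2-fold change, which it reached without control kidney 3 (-1.002). Gstp1, the pi transferase, read 36.2, 37.3, and 40.6 CPM in control and 23.4, 23.4, and 26.5 CPM in FeD kidneys (-0.64±0.089, edgeR adjusted P = 0.000832). It shares 57.3% of its transcript windows with Gstp2, which was read at 0.588 CPM in control kidneys. Gstt1, a theta transferase, had a smaller log2 fold change (-0.32±0.081, edgeR adjusted P = 0.0127), whose call was lost without control kidney 2 (adjusted P = 0.0587).

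Gstt2 and Gsto1 scattered among the FeD kidneys in a way the controls did not. Gstt2 read 180, 186, and 176 CPM in control and 222, 267, and 121 CPM in FeD kidneys, so that 2 FeD kidneys lay above and 1 below every control (0.17±0.238, edgeR adjusted P = 0.591). Gsto1, the omega transferase, read 62.9, 69.6, and 66.3 CPM in control and 93.0, 105, and 66.7 CPM in FeD kidneys (0.41±0.148, edgeR adjusted P = 0.0507). For both genes, FeD 2, with the adrenal transcripts, was the highest kidney and FeD 3, the FeD kidney with Xist, was the lowest FeD kidney. Without FeD 2, the log2 fold changes were -0.06 and 0.29 (edgeR adjusted P = 0.853 and 0.112), and without FeD 3 they were 0.45 and 0.59 (edgeR adjusted P = 0.00222 and 0.000364). The part of either in this scatter was not tested.

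The microsomal transferases sit in membranes of the endoplasmic reticulum and mitochondria and also reduce lipid peroxides. Mgst1 (chr6:138088837-138105276 in mm9) read 94.4, 96.7, and 93.2 CPM in control and 178, 242, and 153 CPM in FeD kidneys. The control kidneys were tight and the FeD kidneys were spread, but all FeD kidneys were higher (1.01±0.148, edgeR adjusted P = 0.00107), by 2.01-fold on average. FeD kidney 2 was the highest, at 1.46 times the mean of the other FeD kidneys. Without it the rise was 0.83 (edgeR adjusted P = 0.000292), or 1.77-fold, so the rise passed but not at 2-fold, and 2 genes in all then passed as 2-fold higher. Without control kidney 3 it was 0.996, again short of 2-fold. Mgst3, which is related in sequence to Mgst1, read 109, 116, and 114 CPM in control and 107, 82.5, and 91.6 CPM in FeD kidneys (-0.27±0.093, edgeR adjusted P = 0.0463). Its call was marginal, and without FeD kidney 2 it was lost (-0.16, edgeR adjusted P = 0.142).

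**Figure D3:**
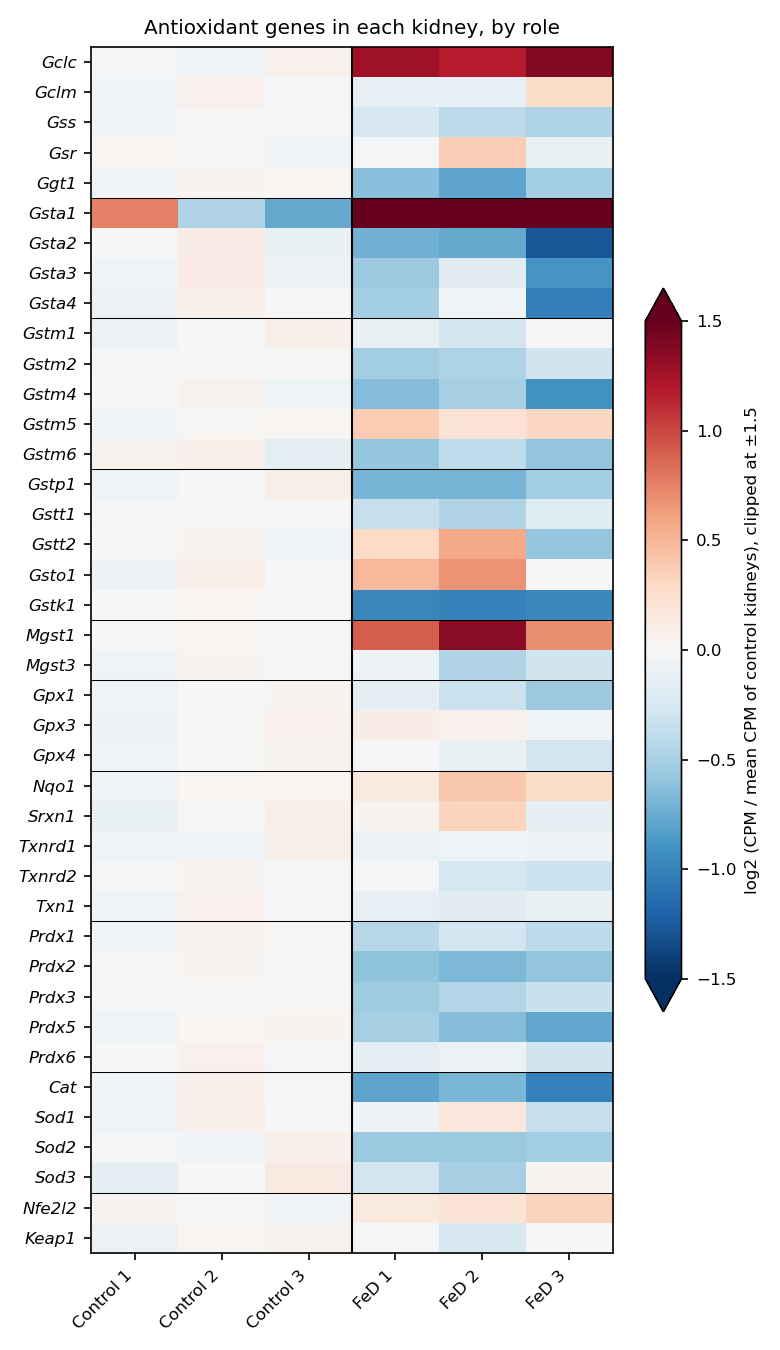
Log2 ratio of each kidney's CPM to the mean of the control kidneys (color, clipped at ±1.5) for the 40 tested genes (rows, by role) in the 6 kidneys (columns). Gclc, Gsta1, and Mgst1 are higher in all 3 FeD kidneys, the peroxiredoxins, Cat, and Sod2 are lower in all 3, and Gstt2, Gsto1, and Gsta4 differ among the FeD kidneys.

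The glutathione peroxidases are selenoproteins, and Gpx3, the secreted form made by the proximal tubule, dwarfed the rest of the set. On a length-scaled measure (CPM per kilobase of exon), Gpx3 stood at 6934±348 in control kidneys, Gpx1 at 876±31.0, and Gpx4 at 263±10.3. Gpx3 read 11899, 12663, and 13152 CPM in control and 13602, 13127, and 12186 CPM in FeD kidneys, which overlapped (0.05±0.097, edgeR adjusted P = 0.730). Gpx3 made up 60.6% of the summed CPM of the 42 genes in control and 65.5% in FeD kidneys. Therefore, the summed level of all 42 overlapped between diets, whereas without Gpx3 it went from 8175±257 to 6840±250 CPM and fell by 16.3% without overlap.

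Gpx1, the abundant cytosolic peroxidase, read 713, 747, and 765 CPM in control and 678, 594, and 507 CPM in FeD kidneys. All FeD kidneys were lower, by a log2 fold change of -0.32±0.108 (edgeR adjusted P = 0.0392), and the call was lost without FeD kidney 2 (adjusted P = 0.0816) or without any one control kidney. Gpx4, which reduces lipid peroxides within membranes and restrains ferroptosis, read 422, 444, and 456 CPM in control and 443, 409, and 360 CPM in FeD kidneys. The groups overlapped, and it did not pass (-0.13±0.089, edgeR adjusted P = 0.277).

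**Figure D4:**
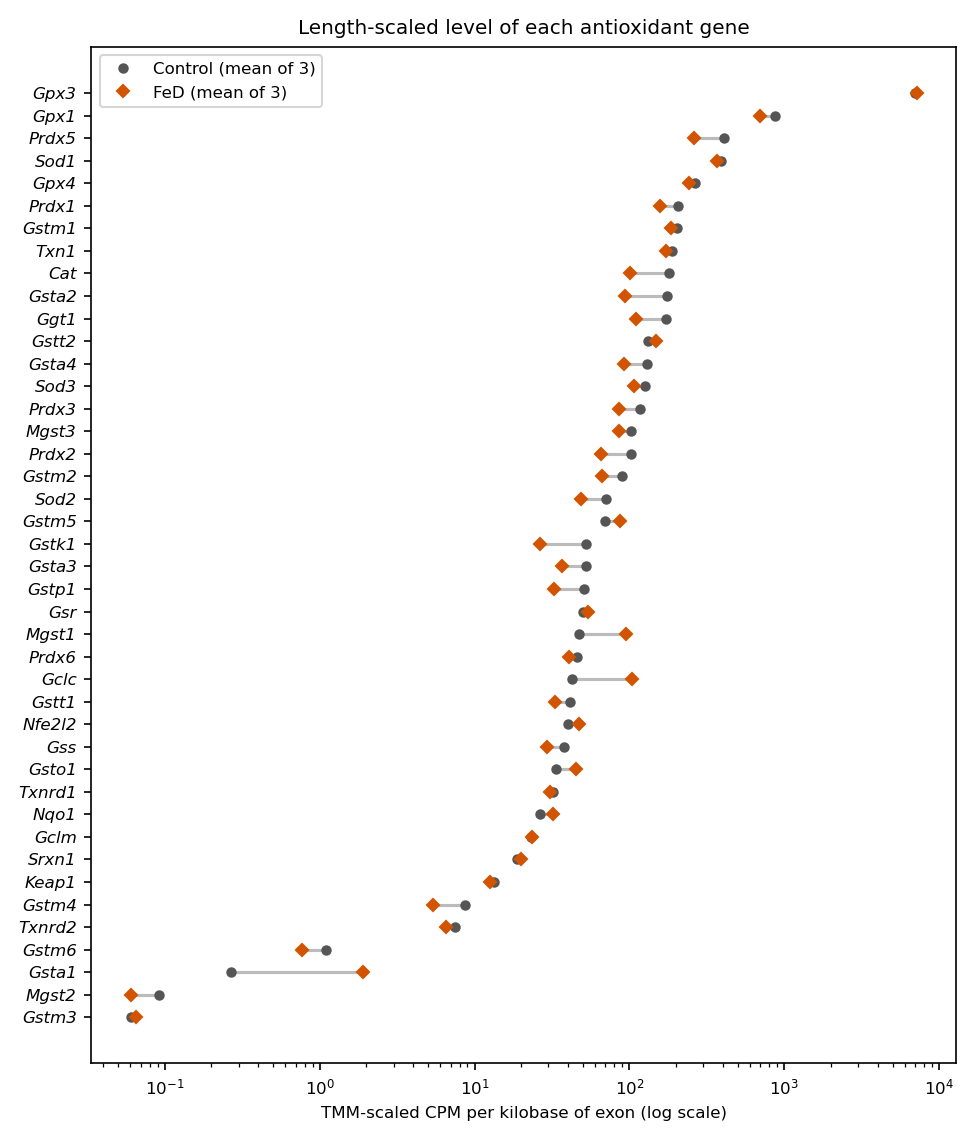
Length-scaled level (TMM-scaled CPM per kilobase of exon, log axis) of the 42 genes, as the mean of 3 control and of 3 FeD kidneys, in the order of the control means. Gpx3 leads at 6934 in control kidneys, and Gclc moves from 42.8 to 104.

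On the same length-scaled measure, Prdx5 (407±16.3) and Sod1 (387±19.4) followed Gpx1 in the control kidneys, and these neighbors in the order did not differ beyond their SDs. The length used takes in every annotated exon of a gene, from 646 bases for Sod1 to 3043 for Prdx1, for example. The order therefore depends on the annotation as well as on the reads. Further down, Prdx1 (204±8.65), Gstm1 (203±11.9), Txn1 (187±8.30), Cat (179±7.92), Gsta2 (175±13.3), and Ggt1 (173±6.89) followed one another, and each overlapped the next within 1 SD. Gclc stood 27th of the 42 genes in control kidneys at 42.8 and reached 104 in FeD kidneys. At the low end were Gsta1 (0.267, which its shared windows may understate), Mgst2 (0.0922), and Gstm3 (0.0605).

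Of the 5 genes of the thioredoxin system and the NRF2-induced enzymes beside it, 1 passed the test. It was higher (20%, against 22.4% of all tested genes), and 0 were lower (against 23.3%). Nqo1, the quinone reductase, read 39.1, 41.9, and 41.8 CPM in control and 45.4, 54.0, and 49.5 CPM in FeD kidneys. It was higher in every FeD kidney by a modest amount (0.28±0.086, edgeR adjusted P = 0.0297), or 1.21-fold, but the call was lost when any one control kidney was left out. Srxn1, which repairs overoxidized peroxiredoxins, overlapped (0.09±0.121, edgeR adjusted P = 0.585). Txn1, the cytosolic thioredoxin, read 189, 206, and 195 CPM in control and 181, 176, and 183 CPM in FeD kidneys. This small difference parted the groups but did not pass (-0.12±0.060, edgeR adjusted P = 0.120). The thioredoxin reductases Txnrd1 (-0.08, edgeR adjusted P = 0.295) and Txnrd2 (-0.20, edgeR adjusted P = 0.122), both selenoproteins, did not pass either, although Txnrd2 passed without FeD kidney 1 (-0.28, adjusted P = 0.0327).

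The 5 peroxiredoxins of this set, which reduce hydrogen peroxide with thioredoxin or, for Prdx6, glutathione, were lower together. For all 5, every FeD kidney lay below every control kidney (100%, against 29.7% of all tested genes). Of the 5, 4 passed the test as lower (80%, against 23.3% of all tested genes). Prdx2, a cytosolic form, read 304, 319, and 306 CPM in control and 203, 195, and 205 CPM in FeD kidneys (-0.62±0.061, edgeR adjusted P = 0.000174). Prdx5, of mitochondria, peroxisomes, and cytosol, read 832, 889, and 895 CPM in control and 615, 556, and 510 CPM in FeD kidneys (-0.64±0.089, edgeR adjusted P = 0.000834). On the means, Prdx2 fell by 35.0% and Prdx5 fell by 35.8%, and both were lower in every FeD kidney. Reads of Prdx5 could not be fully told from Trmt112, since 19.1% of its exon bases overlap that gene on the opposite strand. Prdx3, of mitochondria (-0.43±0.064, edgeR adjusted P = 0.00112), and Prdx1, the other cytosolic form (-0.37±0.074, edgeR adjusted P = 0.00449), fell with smaller log2 fold changes, and Prdx6 did not pass (-0.17±0.073, edgeR adjusted P = 0.0868). The summed level of the 5 was 2143±72.1 CPM in control and 1519±51.3 CPM in FeD kidneys, and so fell by 29.1%.

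Catalase, the heme enzyme of peroxisomes, and the superoxide dismutases followed. Cat (chr2:103294006-103325317 in mm9) read 453, 491, and 457 CPM in control and 270, 290, and 231 CPM in FeD kidneys. It fell by 43.5% on the means and was lower in every FeD kidney (-0.82±0.094, edgeR adjusted P = 0.000338). Sod2, the manganese enzyme of mitochondria, read 264, 263, and 284 CPM in control and 183, 184, and 190 CPM in FeD kidneys (-0.54±0.062, edgeR adjusted P = 0.000354). In contrast, the copper-zinc enzymes Sod1, of the cytosol (-0.08±0.119, edgeR adjusted P = 0.628), and Sod3, secreted (-0.23±0.137, edgeR adjusted P = 0.207), overlapped and did not pass. Sod3 passed without FeD kidney 3 (-0.37, edgeR adjusted P = 0.0153). The summed level of the 4 genes was 1434±63.9 CPM in control and 1068±8.63 CPM in FeD kidneys, and so fell by 25.5%.

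Of the regulators, Nfe2l2, which encodes NRF2, read 158, 154, and 147 CPM in control and 169, 176, and 195 CPM in FeD kidneys. It was higher in every FeD kidney by 1.18-fold (0.23±0.069, edgeR adjusted P = 0.0247), though the call was lost when any one control kidney was left out. Keap1 read 56.3, 61.1, and 62.3 CPM in control and 58.7, 51.3, and 59.8 CPM in FeD kidneys, which overlapped (-0.08±0.082, edgeR adjusted P = 0.454). These are transcript levels, and the amount of NRF2 is set largely by protein turnover, which was not measured.

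**Figure D5:**
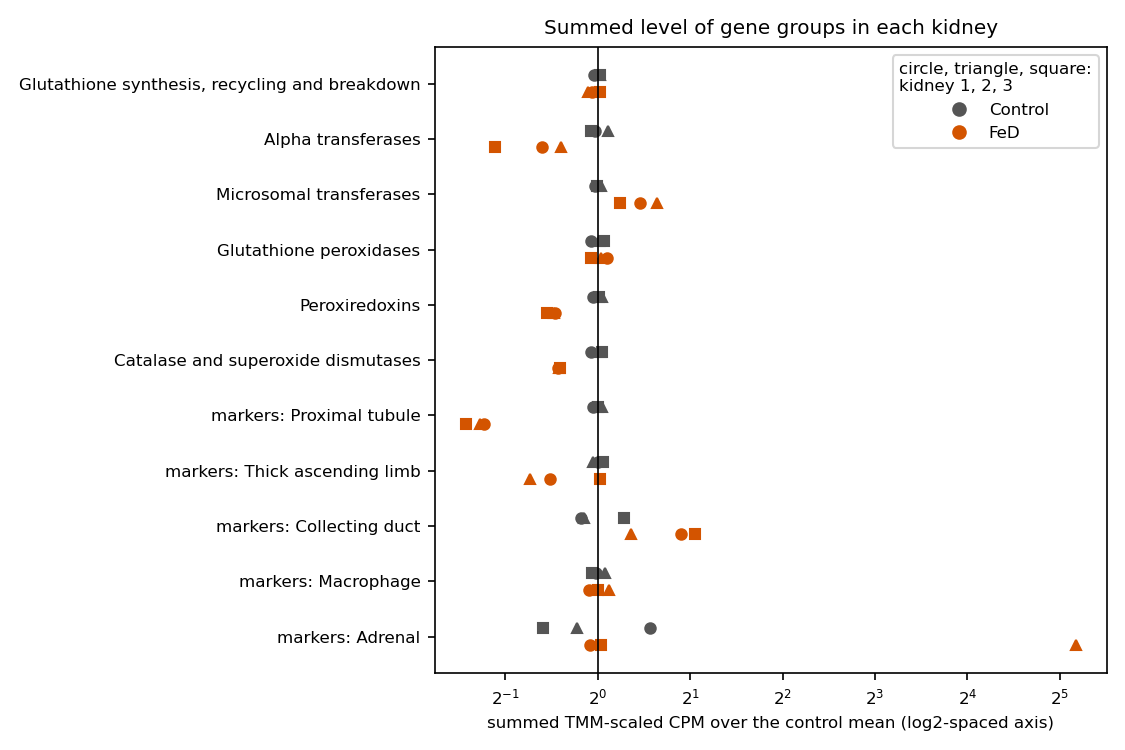
Summed TMM-scaled CPM of gene groups in each kidney, divided by the control mean of that group (x axis, log2-spaced), for control and FeD kidneys, with circles, triangles, and squares for kidneys 1, 2, and 3. Peroxiredoxins (1519 against 2143 CPM) and catalase with the superoxide dismutases (1068 against 1434 CPM) lie left of the controls, as do proximal tubule markers, and the adrenal markers of FeD kidney 2 lie far to the right.

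A wider list of 68 genes of the same pathways, of which 67 were tested, was counted in the same way. Here, 15 were higher (22.4%) and 18 lower (26.9%), close to the shares of all tested genes. Of the 8 further regulators, 6 were higher (75%, against 22.4% of all tested genes) and 0 lower (against 23.3%). Maff, a small MAF partner of NRF2, rose by 1.81 on the log2 scale (edgeR adjusted P = 5.16e-05), and Bach2, of a family that competes with NRF2 at the same element, by 1.05 (edgeR adjusted P = 0.000728). Of 22 tested further glutathione enzymes, 0 were higher (against 22.4% of all tested genes) and 9 lower (40.9%, against 23.3%). Ggct, which turns gamma-glutamyl amino acids into 5-oxoproline, fell by 1.05 (edgeR adjusted P = 0.000634). Of the 12 other thioredoxin and glutaredoxin genes, 5 were higher (41.7%, against 22.4%) and 3 lower (25%, close to the 23.3% of all tested genes). Txnip, which binds and inhibits thioredoxin, was the one 2-fold change among them (1.13, edgeR adjusted P = 0.000253).

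The 22 NADPH-producing enzymes and further NRF2 targets gave 3 higher (13.6%, against 22.4% of all tested genes) and 6 lower (27.3%, close to the 23.3% of all tested genes). The remaining 13 did not pass. The 3 higher were Cbr3 (0.67, edgeR adjusted P = 0.00375), Fth1 (0.36, edgeR adjusted P = 0.0167), and Abcc3 (0.36, edgeR adjusted P = 0.0498). The call of Abcc3 was marginal, and its kidneys overlapped between diets. The enzymes of the pentose phosphate pathway that do not make NADPH, Taldo1 (-0.79, edgeR adjusted P = 0.000141) and Tkt (-0.79, edgeR adjusted P = 9.05e-05), fell. So did the NADPH-producing malic enzyme Me1 (-0.89, edgeR adjusted P = 0.00232) and Idh1 (-0.63, edgeR adjusted P = 0.00279). Nqo2 (-0.56) and Osgin1 (-0.97) were the others called lower. The NADPH producers of that pathway, G6pdx (0.14, edgeR adjusted P = 0.233) and Pgd (0.14, edgeR adjusted P = 0.0677), did not pass. Hmox1, the heme-degrading enzyme, stood at 14.7±1.20 CPM in control and 24.3±13.7 CPM in FeD kidneys and did not pass (0.71, edgeR adjusted P = 0.123). FeD kidney 2 read 39.6 CPM of Hmox1 and the other FeD kidneys 20.1 and 13.2 CPM. Without FeD kidney 2, the log2 fold change of Hmox1 was 0.20 (edgeR adjusted P = 0.408), and without FeD kidney 3 it was 1.02 (edgeR adjusted P = 0.00961). Pgd passed without FeD kidney 3 (0.19, edgeR adjusted P = 0.0110). The genes of this group named here were chosen for description after their values were seen. Of the 3 genes around ferroptosis, Acsl4, which places polyunsaturated fatty acids into membrane lipids, rose by 1.07 (edgeR adjusted P = 3.53e-05), and the other two did not pass.

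Since the glutathione peroxidases and thioredoxin reductases carry selenium, 19 other selenoprotein and selenium supply genes were counted beside them. Of these, 2 were higher (10.5%, against 22.4% of all tested genes) and 6 lower (31.6%, against 23.3%). Among the 5 selenoproteins in the set of 42, 0 were higher and 1 was lower (20%, near the 23.3% of all tested genes). Dio1, the deiodinase that activates thyroid hormone, was lower by 2-fold or more (-2.17, edgeR adjusted P = 0.00250, and -2.92 without FeD kidney 3), as was Scly, which frees selenium from selenocysteine (-1.10, edgeR adjusted P = 5.32e-05).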

How the data were processed

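Poly-A RNA of 6 whole kidneys was sequenced. Per the labels and the study's methods, the authors trimmed reads with Trimmomatic after CASAVA 1.8.2, aligned them to mm9 with TopHat2 2.0.11, and counted uniquely mapped reads per gene with HTSeq; the deposited values are raw counts. Gene annotation, counting mode, and strand are not given in the sources used here, so reads of overlapping genes cannot be told apart.

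From these counts, genes were filtered with filterByExpr, scaled by TMM, and tested for diet with edgeR 4.0.16 (R 4.3.3), with Benjamini-Hochberg adjustment over 15145 genes. SE is the log2 fold change divided by the square root of F. Thresholds were adjusted P 0.05 alone or with a 2-fold change. DESeq2 1.42.0, other scalings and filters, the replicate number as a block, and leaving out each kidney were alternatives. The steps were tested on simulated data. The genes and lists were chosen with earlier results of these data known, so no list was tested as a whole. Values in every kidney are given for genes changed 2-fold and for the 2 smallest adjusted P in each role group; of the other lists, genes changed 2-fold are named. Values in every kidney of Gclm, Gsta4, Gstt2, Gsto1, and Gpx3, and the ratio of Gclc to Gclm, were added after they were seen, as were the genes so described in the text. The floor is 3 counts, and intervals cover counting error only. Exon lengths and overlaps come from GENCODE vM1 (mm9), and promoter windows from RefSeq (GRCm38.p6). No 2 libraries of the same diet agreed within sampling noise. For a single gene, an exact permutation test of 3 against 3 cannot go below P = 0.1, so none was used. Run on the ratio of Gclc to Gclm, the exact permutation test gave that lowest value, P = 0.1.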

Additional observations from a re-analysis of the deposited data

How the results depend on the processing

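Each of the 40 tested genes was refitted under 12 alternatives, and 24 kept their direction and their side of the threshold in all of them. Of 479 values, 436 kept both, 26 lost a call, 11 gained one, and 6 changed sign, all of them differences that had not passed. They were Gclm and Sod1 without FeD kidney 3, and Gsr, Gstt2, Srxn1, and Keap1 without FeD kidney 2. Over the fits that left out 1 kidney each, the log2 fold change ran from -0.11 to 0.12 for Gclm, -0.041 to 0.20 for Gsr, -0.056 to 0.45 for Gstt2, -0.027 to 0.20 for Srxn1, -0.19 to 0.053 for Sod1, and -0.13 to 0.0053 for Keap1. Leaving out 1 kidney in turn gave 2 to 3 genes higher by 2-fold and 0 to 1 lower by 2-fold (Gstk1, without control kidney 3), 4 to 8 higher and 13 to 17 lower at adjusted P under 0.05, and 12 to 19 higher and 15 to 23 lower of the wider list. Mgst1 lost its 2-fold call without control kidney 3, without FeD kidney 2, and with the replicate block, and Gsta1 was not tested when 10 counts were required in every kidney. Mgst3 lost its call under 9 of the 12 alternatives, Gpx1 under 5, Gsta3 and Nfe2l2 under 4, Nqo1 under 3, and Gstt1 under 1. Calls were gained by Gsto1 (higher) under 5 alternatives, among them DESeq2, and by Gsta4 (lower) under 3. Gstt2 (higher), Txnrd2 (lower), and Sod3 (lower) each gained a call under 1. The cause was not tested. DESeq2 called 7 genes higher and 18 lower.

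Kidneys of the 2 diets that share a replicate number did not deviate together (correlations of -0.18, -0.0020, and -0.04). Pairs with unlike numbers ran from -0.10 to 0.195. With so few kidneys, this check cannot exclude a shared litter or preparation. With the number as a block, 2 genes were higher by 2-fold, 0 lower by 2-fold, 6 higher and 16 lower at adjusted P under 0.05, with 14 higher and 18 lower of the wider list. Depth limits Gsta1, Gstm3, Gstm6, and Mgst2, which had few reads.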
